A study of Mus musculus with 14 samples.

Results

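The 10 genes described here make up the machinery that moves cholesterol and other lipids out of cells: the apolipoproteins Apoe, Clu, Apod, Apoc1 and Apoa1, the membrane transporters Abca1, Abcg1 and Abca7, and the liver X receptors Nr1h2 and Nr1h3. They were taken by gene symbol, and all 10 were found among the 24421 genes of the deposited count table. RNA from the hippocampus of 14 naive male mice had been sequenced, 7 of them labelled LPAR2-/- and 7 labelled as wildtype controls (WT), each mouse giving 1 library. All mice had a mixed 129 and C57Bl6 background. The mice labelled LPAR2-/-, which lack part of exon 2 of the lysophosphatidic acid receptor gene Lpar2, came from a colony kept as homozygotes beside the control colony, so that genotype and colony cannot be told apart. The sample labels give an age of 10 to 12 weeks, the deposited description of the study calls the mice middle-aged to aged, and the study's results name the dentate gyrus instead of the whole hippocampus, so that age and exact region are not known.

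Counts on the targeted gene were higher in the mice labelled as its knockout. In CPM, that is counts relative to the TMM-scaled total of the library, Lpar2 was read at 8.20 to 12.3 in the mice labelled LPAR2-/- and at 1.51 to 3.23 in WT mice. The log2 fold change was 2.01 ± 0.157 (SE, n = 7 per genotype, adjusted p = 8.2e-07 in edgeR's quasi-likelihood test). The counts join all exons of Lpar2, so they do not show whether the deleted stretch was read. The mice are therefore called knockout-labelled below, and every direction refers to the labels. Between 15434620 and 23258949 counts fell on genes in each library. All 9 markers of hippocampal subfields passed the filter on low counts, with summed levels of 683 to 886 CPM over the 14 mice, and markers of striatum and thalamus summed to 159 to 261 CPM.

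As background, apolipoproteins are the protein coat of lipoprotein particles. In the brain these particles are made mainly by astrocytes, which secrete Apoe and Clu, and they carry cholesterol to neurons for membranes and synapses. Abca1 hands cholesterol and phospholipid to lipid-poor apolipoproteins, Abcg1 adds cholesterol to particles already formed, and Abca7 is a close relative of Abca1 that moves phospholipids. The liver X receptors, Nr1h3 (LXR alpha) and Nr1h2 (LXR beta), are nuclear receptors activated by oxysterols, and Abca1, Abcg1, Apoe and Srebf1 are among their known target genes.

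The genes lie on 8 chromosomes of the mm10 build, none of them on chromosome 8 with Lpar2, and all are annotated as protein coding. Apoe (chr7:19696244-19699188) and Apoc1 (chr7:19689480-19692659) stand in the same orientation, 3584 bases apart. The others are Clu (chr14:65968483-65981545), Apod (chr16:31296192-31314808), Apoa1 (chr9:46228630-46230469), Abca1 (chr4:53030789-53159895), Abcg1 (chr17:31057694-31117981), Abca7 (chr10:79997615-80015572), Nr1h2 (chr7:44549616-44553965) and Nr1h3 (chr2:91184061-91195116). No exon of any of them overlaps an exon of another counted gene.

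The 250 bases before the start site, from RefSeq on GRCm38.p6, are given for 3 genes that the results turn on: Apoe, the highest of the 10, Apod, which had the largest difference between genotypes of the 9 genes that passed the filter on low counts, and Abca1, the classical efflux gene under liver X receptor control. Of the 10 genes, 7 had an entry in the promoter table used here. The sequences run 5′ to 3′ on the gene's own strand, here the minus strand for all 3 genes, and capitals mark matches on either strand to 4 motifs. The first was the E-box, searched with the letters CACGTG, and the second the GC box, for which the letters were GGGCGG. The third was the core of the TATA element, written TATAAA, and the last the half-site of nuclear receptors, which was searched as AGGTCA. The ideal liver X receptor element DR4, in which 4 bases separate 2 such half-sites, was searched in the same way, and it overlaps the half-site by construction.
Apoe, chr7:19699189-19699438: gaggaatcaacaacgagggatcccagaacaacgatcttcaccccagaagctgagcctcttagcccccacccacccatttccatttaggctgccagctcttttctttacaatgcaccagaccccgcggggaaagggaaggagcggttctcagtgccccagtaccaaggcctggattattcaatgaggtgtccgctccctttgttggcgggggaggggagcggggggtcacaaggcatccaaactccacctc
Apod, chr16:31314809-31315058: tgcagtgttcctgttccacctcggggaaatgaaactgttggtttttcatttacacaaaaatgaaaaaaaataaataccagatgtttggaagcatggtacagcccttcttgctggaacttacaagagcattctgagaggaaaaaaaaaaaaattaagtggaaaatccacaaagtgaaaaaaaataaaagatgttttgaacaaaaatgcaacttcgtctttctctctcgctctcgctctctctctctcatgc
Abca1, chr4:53159896-53160145: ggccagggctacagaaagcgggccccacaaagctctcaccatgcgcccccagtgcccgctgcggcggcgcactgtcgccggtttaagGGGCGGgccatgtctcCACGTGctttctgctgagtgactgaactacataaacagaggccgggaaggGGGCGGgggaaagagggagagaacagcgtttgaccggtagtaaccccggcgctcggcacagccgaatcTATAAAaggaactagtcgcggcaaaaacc
The Abca1 window held 1 TATAAA that began 29 bases before the start, 1 CACGTG that began 147 bases before it and 2 GGGCGG, none of which overlapped. None of the searched letters occurred in the Apoe and Apod windows, which says nothing about other forms of these motifs or other windows. G and C made up 57.2% of the bases for Apoe and 61.6% for Abca1 but 36.4% for Apod. Among 32851 promoters of the same length, 12.4% held TATAAA, 6.02% held CACGTG, 32.7% held GGGCGG, 14% held AGGTCA and 0.0152% held DR4.

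The levels of the 10 genes per gene length spanned more than 3 orders of magnitude. In RPKM, that is counts scaled to exon length and to the library's total on genes, Apoe reached 714 ± 69.5 and Clu 476 ± 39.6 (mean ± SD over all 14 mice), ranks 17 and 40 among all genes of the table. Apod, a lipocalin that carries small hydrophobic molecules, followed with 39.8 ± 17.4 RPKM. Nr1h2 with 16.4 ± 1.46 and Abcg1 with 16.3 ± 0.982 RPKM were next, and then came Abca7 with 3.94 ± 0.643, Abca1 with 3.21 ± 0.540 and Nr1h3 with 2.29 ± 0.327 RPKM. Apoc1, a small apolipoprotein best known from liver and macrophages, had 0.987 ± 0.345 RPKM and Apoa1, the main protein of plasma high-density lipoprotein, 0.172 ± 0.104 RPKM. Of the 9 neighbouring pairs in this order, 4 overlapped in their ranges over mice: Apod with Nr1h2, Nr1h2 with Abcg1, Abca7 with Abca1, and Abca1 with Nr1h3. The other 5 did not overlap. The LXR beta gene was thus well above the LXR alpha gene in every mouse, with 14.7 RPKM as its lowest value against 2.98 RPKM as the highest for Nr1h3.

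**Figure D1:**
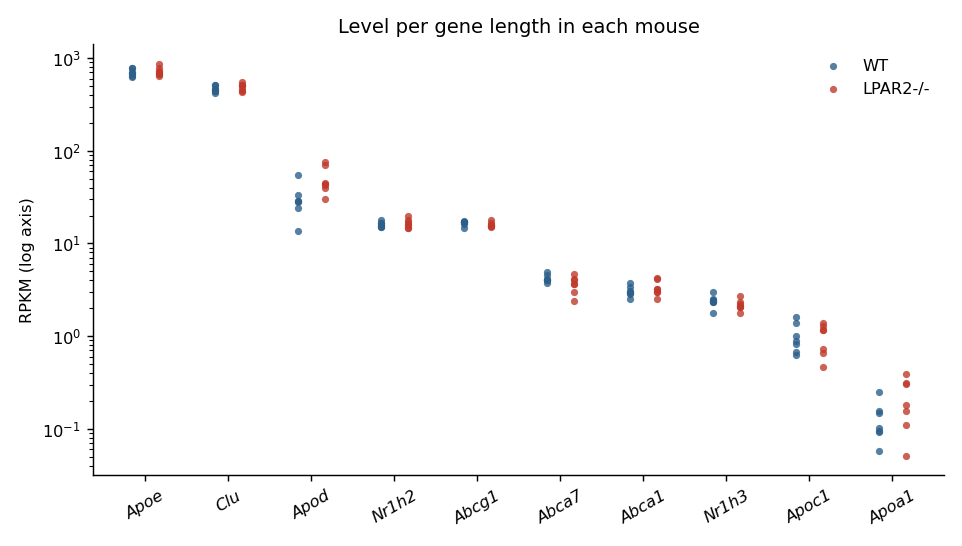
Level of each gene in RPKM on a log axis, ordered by the mean over all mice, with 1 point per mouse for WT (blue) and knockout-labelled (red) mice. Apoe and Clu stand apart at 714 and 476 RPKM on average, Apod spreads most among the abundant genes, and Apoa1 lies lowest at 0.172 RPKM.

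The first comparison asked whether these genes differ between genotypes in naive mice. None of the 9 genes that passed the filter on low counts did so at an adjusted p under 0.05 (0 of 9), whereas 6.77% of all 14897 genes tested passed (1009 genes). By direction, 0 of 9 rose against 3.32% of all genes and 0 of 9 fell against 3.46%. At an unadjusted p under 0.05 the count was 1 of 9, which was Apod, against 22.4% of all genes. It was 2 of 9 when knockout-labelled mouse 3 was left out, with Abca7 beside Apod, and when knockout-labelled mouse 6 or WT mouse 1 was left out, with Abcg1 beside Apod. DESeq2, which gave no adjusted p for Apoc1, and limma also called 0 of the 9. The knockout-labelled and WT mice did not separate completely in CPM for any of the 10 genes, against 1.77% of all genes tested. Fitted log2 fold changes, knockout-labelled over WT, ran from −0.22 for Abca7 to 0.70 for Apod, with a median of 0.03 beside 0.0029 for all genes.

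**Figure D2:**
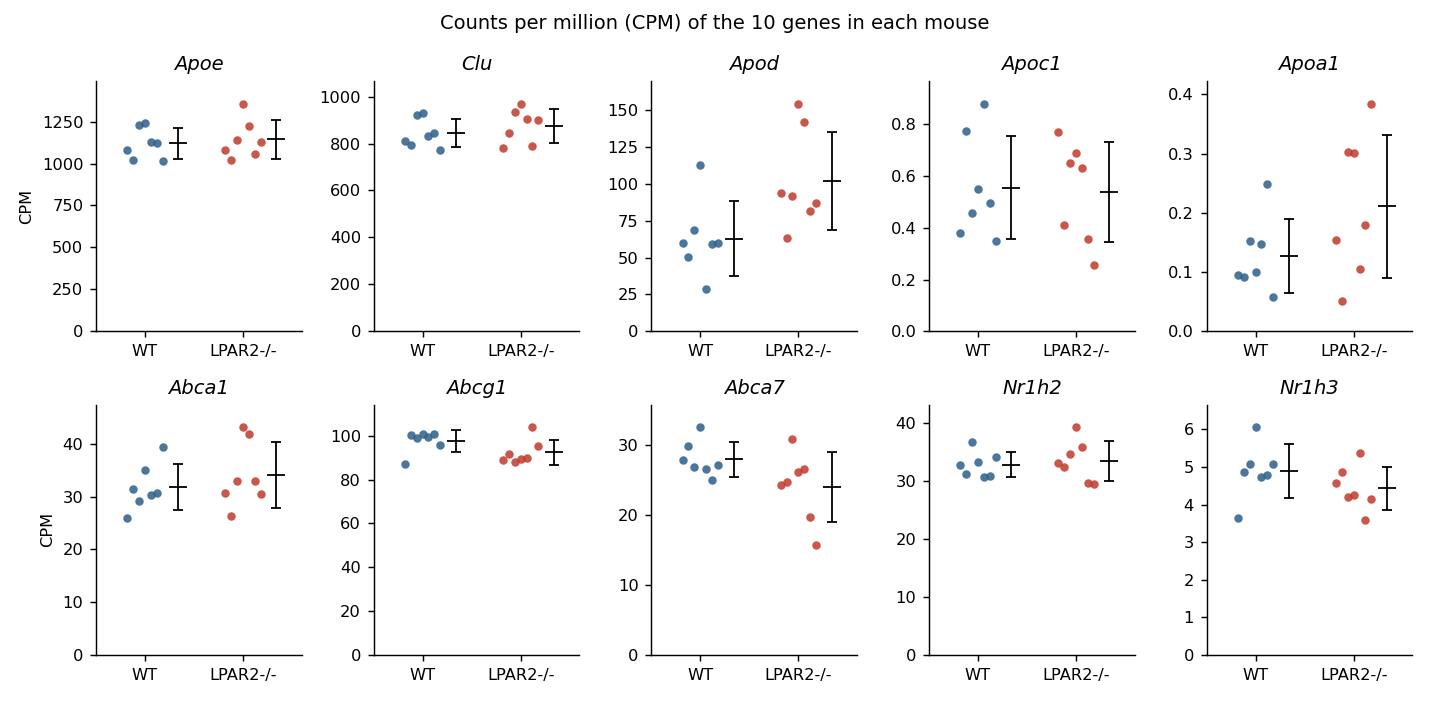
CPM of each gene in every mouse, with the mean and SD of each group of 7 beside the points and axes starting at 0. The groups overlap in every panel. For Apod the lowest knockout-labelled mouse (63.2 CPM) lies above 5 of the 7 WT mice.

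Apoe and Clu were nearly level between the genotypes. Apoe was read at 1021, 1131 and 1357 CPM (lowest, median, highest) in knockout-labelled mice and at 1016, 1124 and 1243 CPM in WT mice. Only knockout-labelled mouse 4 exceeded every WT mouse. The log2 fold change was 0.03 ± 0.065 (adjusted p = 0.830), and its 95% interval in linear terms ran from 0.928-fold to 1.12-fold. Clu, also known as clusterin or apolipoprotein J, a secreted chaperone, was read at 782, 901 and 970 CPM in knockout-labelled mice against 774, 834 and 931 CPM in WT mice. Its log2 fold change of 0.05 ± 0.0573 (adjusted p = 0.652) had an interval from 0.952-fold to 1.13-fold.

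Apod had the largest difference of the 9 genes tested. In knockout-labelled mice 1 to 7 it was read at 94.1, 63.2, 91.6, 154, 142, 81.9 and 86.9 CPM, and in WT mice 1 to 7 at 59.7, 50.2, 68.8, 113, 28.3, 59.5 and 60.0 CPM. All 7 knockout-labelled mice lay above the WT median, and 2 of them, mice 4 and 5, above the highest WT mouse. WT mouse 4 was the exception on the other side, since it exceeded 5 of the knockout-labelled mice. The means were 102 ± 33.3 and 62.7 ± 25.4 CPM (SD, n = 7 each), and the log2 fold change was 0.70 ± 0.262, or 1.63-fold with a 95% interval from 1.10-fold to 2.40-fold. Its unadjusted p of 0.0180 did not hold over all genes tested (adjusted p = 0.129 in edgeR). A single library decided on which side of the threshold it fell: without WT mouse 4 the log2 fold change was 0.91 and the adjusted p 0.0454, while without any other single mouse the adjusted p lay between 0.102 and 0.222.

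Apoc1 and Apoa1 were at the edge of detection. Apoc1 had 4 to 16 counts per knockout-labelled library and 6 to 18 per WT library, or 0.256 to 0.769 and 0.350 to 0.880 CPM. Its log2 fold change of −0.03 had a wide interval, from 0.659-fold to 1.46-fold, and changes within it were not detectable here. Apoa1 did not pass the filter. Its counts were 3, 1, 7, 7, 2, 3 and 6 in knockout-labelled mice 1 to 7 and 2, 2, 3, 2, 3, 4 and 1 in WT mice 1 to 7. In CPM, mice 3, 4 and 7 of the knockout-labelled group stood above all WT mice, mouse 2 stood below all of them, and the others lay among them. The difference in mean log2 CPM was 0.39 with a prior count of 2 (exact two-sided permutation test over 3432 arrangements, p = 0.163).

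Among the transporters, Abca1 was slightly higher and Abcg1 and Abca7 were lower in knockout-labelled mice, none beyond the test. Abca1 was read at 26.2, 32.9 and 43.1 CPM (lowest, median, highest) in knockout-labelled mice and at 26.0, 30.8 and 39.4 CPM in WT mice, and the log2 fold change was 0.10 ± 0.111 (adjusted p = 0.627). With each mouse left out it ran from 0.039, without knockout-labelled mouse 4, to 0.16, without WT mouse 7. Knockout-labelled mice 4 and 5, which were the highest for Apod, were also the highest for Abca1, at 43.1 and 41.9 CPM. Abcg1 was the steadiest of the 10 genes, with coefficients of variation of 6.01% and 4.98% in knockout-labelled and WT mice. It was read at 88.0, 89.8 and 104 CPM against 87.4, 99.7 and 101 CPM. Of the 7 knockout-labelled mice only mouse 6 exceeded the WT median, and WT mouse 1 at 87.4 CPM lay below all other WT mice. The log2 fold change was −0.08 ± 0.0433 (adjusted p = 0.293), with an interval from 0.888-fold to 1.01-fold.

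Abca7 showed the largest fitted decrease. It was read at 24.3, 24.7, 30.8, 26.1, 26.6, 19.6 and 15.7 CPM in knockout-labelled mice 1 to 7 and at 27.9, 29.9, 26.9, 32.5, 26.5, 25.0 and 27.1 CPM in WT mice 1 to 7. Knockout-labelled mice 1, 2, 6 and 7 lay below every WT mouse, and mouse 3 alone lay above the WT median. The log2 fold change was −0.22 ± 0.114, or 0.860-fold with an interval from 0.728-fold to 1.02-fold, and it did not pass (unadjusted p = 0.0742, adjusted p = 0.275 in edgeR). Without knockout-labelled mouse 7, the lowest, the log2 fold change was −0.14, and without knockout-labelled mouse 3 it was −0.29. With any 1 mouse left out the adjusted p lay between 0.106 and 0.430.

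The receptors did not differ beyond the spread between mice. Nr1h2 was read at 29.5, 33.0 and 39.2 CPM in knockout-labelled mice and at 30.6, 32.7 and 36.6 CPM in WT mice, with a log2 fold change of 0.03 ± 0.0629 (adjusted p = 0.797). Nr1h3 was read at 3.58, 4.26 and 5.37 CPM against 3.64, 4.87 and 6.05 CPM. Of the 7 knockout-labelled mice only mouse 5 exceeded the WT median of Nr1h3. Its log2 fold change was −0.14 ± 0.111 (adjusted p = 0.486), with an interval from 0.771-fold to 1.07-fold. This is wider than the interval of Nr1h2 (0.934-fold to 1.12-fold), which had 4624 counts over the knockout-labelled libraries against 607 for Nr1h3.

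**Figure D3:**
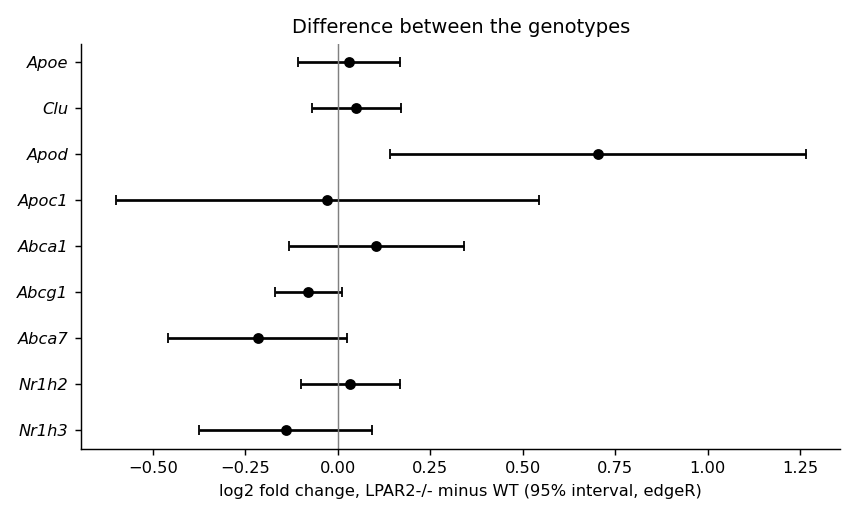
Fitted log2 fold change of the 9 genes tested, knockout-labelled minus WT, with 95% intervals from edgeR. Only the interval of Apod (0.14 to 1.27) leaves out 0, before adjustment over all genes, and the intervals of Apod and Apoc1 are the widest.

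The genes around these 10 were counted in 4 lists. Of 93 genes found in the table, 64 were tested and 3 called, against the 6.77% of all genes, and 9 of 64 had an unadjusted p under 0.05, against 22.4% of all genes. The median log2 fold change over the 64 was 0.0097. Of 23 genes listed as other apolipoproteins only 3 were tested, and none was called. These were Apoa2, Apol8 and Apobr, of which the last is a receptor for apolipoprotein B and not an apolipoprotein. Apoa2, a further protein of high-density lipoprotein, was read at 6.88 ± 0.974 and 6.74 ± 0.574 CPM and Apol8, an apolipoprotein L, at 3.18 ± 0.380 and 2.79 ± 0.333 CPM in knockout-labelled and WT mice. Apoc2 and Apoc4, the neighbours of Apoc1 in the gene cluster, were at 0 in all 14 libraries. Both share exons with a joint read-through gene in the table, and reads on several genes had not been counted, so that these zeros cannot be read as absence.

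Among 14 other lipid transporters tested of the ABCA, ABCD and ABCG families, 1 rose and none fell, against 3.32% and 3.46% of all genes. This was Abca4, known as the retinoid transporter of photoreceptors. It was read at 2.62, 3.49 and 4.05 CPM in knockout-labelled mice and at 1.27, 2.22 and 2.70 CPM in WT mice (log2 fold change 0.70 ± 0.186, adjusted p = 0.0326). The groups overlapped slightly at these low levels, and the call was lost without any 1 of 7 of the 14 mice (adjusted p up to 0.0708). The most abundant transporters were level: Abca2, a transporter of oligodendrocytes and neurons, had 301 ± 45.1 and 299 ± 17.7 CPM and Abca3 135 ± 20.1 and 132 ± 7.19 CPM.

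Of 25 genes of lipoprotein remodelling and intracellular cholesterol handling, 1 fell and none rose, against 3.46% and 3.32% of all genes. Osbpl6, a protein of the oxysterol-binding family, was read at 67.0, 73.7 and 79.5 CPM in knockout-labelled mice and at 72.6, 83.2 and 92.0 CPM in WT mice, with overlap (log2 fold change −0.18 ± 0.0494, adjusted p = 0.0347). It was lost without any 1 of 9 of the 14 mice (adjusted p up to 0.0801). Cyp46a1, the neuronal enzyme that turns cholesterol into 24-hydroxycholesterol, was read at 189 ± 15.6 and 174 ± 9.95 CPM (log2 fold change 0.12, adjusted p = 0.192), and Nceh1, a cholesterol ester hydrolase, at 139 ± 5.57 and 140 ± 4.86 CPM.

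Of 25 partners, coregulators and targets of the liver X receptors, 1 rose and none fell, against 3.32% and 3.46% of all genes. Srebf1, the transcription factor of fatty acid synthesis, was read at 47.5, 53.8 and 67.9 CPM in knockout-labelled mice and at 40.8, 46.1 and 49.3 CPM in WT mice (log2 fold change 0.33 ± 0.0836, adjusted p = 0.0277). The groups overlapped, and the call was lost without any 1 of 5 of the 14 mice (adjusted p up to 0.0660). Scd2 and Fasn, the most abundant of the list and both enzymes of fatty acid synthesis, were read at 1142 ± 199 and 1169 ± 58.0 CPM and at means of 357 and 346 CPM, with log2 fold changes of −0.03 (adjusted p = 0.861) and 0.04 (adjusted p = 0.814). The known receptor targets Abca1, Abcg1 and Apoe were not called, and their differences from Srebf1 were not tested.

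Markers of other cell types were summed per mouse to see what moved with these genes. In bulk tissue a smaller number of cells of a type and less RNA per cell cannot be told apart. No list of 11 differed between genotypes after adjustment over the lists. Fibroblast markers of meninges and vessels differed in the same direction as Apod: 11 of 12 had a higher mean in knockout-labelled mice, and their sum was 353 ± 167 CPM (116 to 578) against 189 ± 104 CPM (88.6 to 407) in WT mice (exact two-sided permutation test, p = 0.0495, adjusted p = 0.250). Among them only Lum, a collagen-binding proteoglycan, was called (log2 fold change 0.54 ± 0.117, adjusted p = 0.0132 in edgeR). This is 1 of 12, against 6.77% of all genes, and the call was lost with the mouse number as a block (adjusted p = 0.0534). An unadjusted p under 0.05 was found for 9 of the 12, against 22.4% of all genes. The median log2 fold change of the 12 was 1.05. Choroid plexus markers had a higher mean in knockout-labelled mice for 10 of 10, with a sum of 296 CPM in knockout-labelled mouse 2 and 28.9 to 57.0 CPM in the others, against 31.5 to 38.4 CPM in WT mice (exact p = 0.0484, adjusted p = 0.250). Of the 7 knockout-labelled mice, 5 lay above the highest WT mouse. The filter on low counts was not passed by 4 of the 10 choroid plexus markers. Endothelial markers summed to 235 to 338 and 210 to 330 CPM, with 6 of 10 higher, and markers of pericytes and smooth muscle to 200 to 395 and 155 to 341 CPM, with 6 of 10 higher (exact p = 0.0682, adjusted p = 0.250). No marker of these 4 lists was at 0 in all libraries. Without knockout-labelled mice 2 and 3, which stood apart in choroid plexus and in oligodendrocyte markers, the log2 fold change of Apod was 0.84 (adjusted p = 0.104).

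Apod varied with the vascular markers. Over the 14 mice, with the genotype means removed, its log2 CPM correlated with the log2 of the endothelial sum at Pearson r = 0.945 (permutation p = 2e-05, adjusted p = 0.00198 over 99 relations of 9 genes and 11 lists, Spearman rho = 0.908, p = 4e-05). The relation was 0.914 among knockout-labelled and 0.975 among WT mice. It was 0.912 without the 2 mice whose marker sum, with the genotype means removed, lay farthest from the median. The same rule was used for all relations with marker lists. With pericyte and smooth muscle markers r was 0.840 (permutation p = 0.00053, adjusted p = 0.0188, rho = 0.776, p = 0.00248, adjusted p = 0.0509, 0.870 without 2 mice) and with fibroblast markers 0.743 (permutation p = 0.00444, adjusted p = 0.0628, rho = 0.618, p = 0.0249, 0.813 without 2 mice), which did not pass. WT mouse 5 was lowest and knockout-labelled mouse 4 highest for both Apod and endothelial markers among their own groups. WT mouse 4, whose removal brought Apod past the threshold, had the highest endothelial, pericyte and fibroblast sums of all WT mice. The ratio of Apod to the endothelial sum was 0.331, 0.268, 0.351, 0.457, 0.460, 0.348 and 0.308 in knockout-labelled mice 1 to 7 and 0.226, 0.210, 0.232, 0.341, 0.135, 0.227 and 0.225 in WT mice 1 to 7. Only WT mouse 4 lay within the range of the knockout-labelled mice. This ratio was added after its parts had been seen and is given without a test. The part of these cells in the difference of Apod was not tested.

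**Figure D4:**
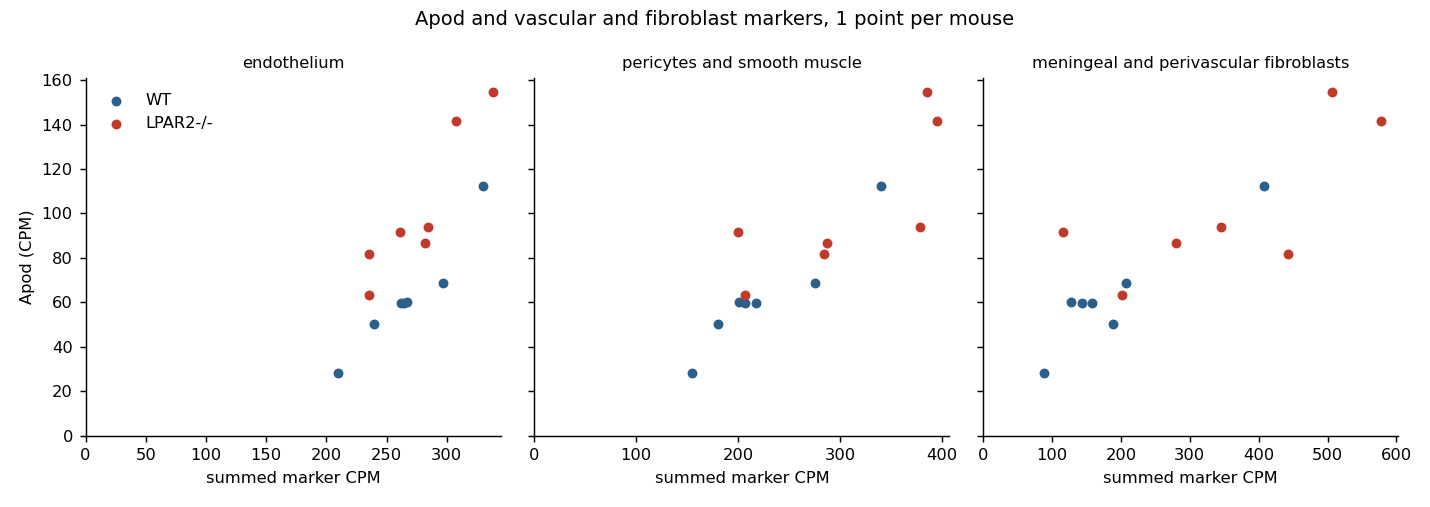
Apod in CPM against the summed CPM of endothelial, pericyte and smooth muscle, and fibroblast markers, with 1 point per mouse for WT (blue) and knockout-labelled (red) mice and axes starting at 0. On log2 values with the genotype means removed, r was 0.945 for the endothelial, 0.840 for the pericyte and 0.743 for the fibroblast sum, of which the last did not pass.

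Of the other 96 relations with marker lists, 2 passed by Pearson r. Clu correlated with astrocyte markers (r = 0.852, permutation p = 0.00057, adjusted p = 0.0188, rho = 0.851, p = 0.0006, 0.894 without 2 mice), in knockout-labelled (0.884) and in WT mice (0.806). Apoe had r = 0.732 with the same markers (permutation p = 0.00517, adjusted p = 0.0640, rho = 0.741, p = 0.00454, 0.886 without 2 mice) and r = 0.748 with endothelial markers (permutation p = 0.00337, adjusted p = 0.0556, rho = 0.613, p = 0.0282, 0.864 without 2 mice), neither of which passed. Astrocyte markers were at 5032 to 5890 CPM in knockout-labelled and 5210 to 5951 CPM in WT mice. Abcg1 correlated negatively with neuronal markers (r = −0.72, permutation p = 0.0018, adjusted p = 0.0445, rho = −0.75, p = 0.00257, adjusted p = 0.0509, −0.65 without 2 mice). These sums ran from 8687 to 10534 CPM and from 8923 to 10873 CPM. All relations are between levels in the same libraries, so that a change in 1 share of the RNA moves the others.

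The genes were then compared with each other over the 14 mice, again with genotype means removed. Of 36 pairs, 1 passed: Apoe and Clu, the secreted apolipoproteins of astrocytes, correlated at r = 0.869 (permutation p = 0.00022, adjusted p = 0.00792, rho = 0.842, p = 0.00055, adjusted p = 0.0198). The relation was 0.787 among knockout-labelled and 0.984 among WT mice, and 0.807 without the 2 mice farthest from the median of Apoe. Knockout-labelled mouse 4 and WT mouse 4 were the highest of their groups for both genes. Apoe and its neighbour Apoc1 had r = 0.26, though Apoc1 rests on at most 18 counts per library. Abcg1 and Abca1, transporters under the same receptors, had r = 0.04, and Nr1h2 and Nr1h3 r = 0.34. The median over all 36 pairs was 0.299. The values of Abcg1 differed in sign between the genotypes for some genes: with Nr1h3 r was −0.67 among knockout-labelled and 0.81 among WT mice, and with Apoc1 −0.73 and 0.59. These differences between the genotypes were not tested.

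**Figure D5:**
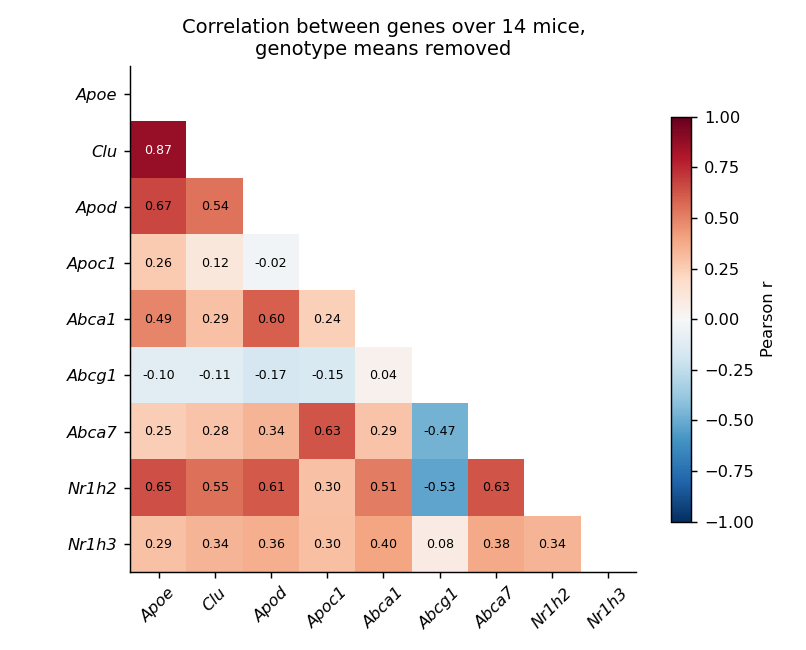
Pearson r between the 9 genes tested over 14 mice with the genotype means removed, printed in each cell and coloured from −1 to 1. Apoe and Clu have the highest value (0.87), and Abcg1 has values between −0.53 and 0.08 with the other genes.

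For each gene, the 2 genes of all 14896 others whose level over the 14 mice was most like it were listed by Pearson r. This used log2 CPM with the genotype means removed and is a description without a test. Apod was nearest to A2m, the protease inhibitor alpha-2-macroglobulin (0.943), and to Pdgfrb, a growth factor receptor of pericytes that is also in the pericyte list (0.934). Apoe was nearest to the homeobox gene Msx1 (0.959) and to Adhfe1 (0.940), and Clu to Psd2 (0.902) and to Msx1os, the antisense gene of Msx1 (0.887). Abcg1 was nearest to Epn2, an endocytic adaptor (0.933), and Nhsl2 (0.926), Abca1 to Lhfp (0.880) and Rnpc3 (0.863), and Abca7 to A330070K13Rik (0.914) and Ksr2 (0.904). Nr1h2 was nearest to 2810428I15Rik (0.924) and Fam129b (0.921), Nr1h3 had 1810011O10Rik as its second nearest gene (0.836), and Apoc1 was nearest to Adcy6 (0.893) and Zfp516 (0.876). With so many candidates and 14 mice, high values also occur for genes of low counts such as Apoc1. The highest of these values was that of Apoe and Msx1.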

How the data were processed

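RNA was extracted with Trizol and libraries were prepared with a TruSeq kit (the study's methods add removal of ribosomal RNA) and sequenced on an Illumina instrument. The authors used cutadapt 1.18 for trimming and STAR for alignment to mm10, and deposited raw counts per gene from featureCounts 1.6.3, which counted exons on the reverse strand and left out reads of several genes or places. Such reads can lower the counts of genes with near-identical copies. The deposited normalized table (DESeq2 1.22.2) was not used, because its decimal separators were lost.

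Here the counts were analysed with R 4.3.3, edgeR 4.0.16 (filterByExpr, TMM, robust quasi-likelihood test, 7 mice against 7 without covariates), limma 3.58.1 and DESeq2 1.42.0, with Benjamini-Hochberg adjustment over 14897 of 24421 genes at 0.05. CPM were scaled by TMM factors, and 2 counts were added as prior before logs. RPKM used total counts on genes and the exon lengths of the count table. Permutations of marker sums and of Apoa1 were exact, and correlations used 100000 permutations of mice within genotype. Correlations with marker lists were added after the data had been seen. The procedures were tested on simulated data. Copies of libraries were looked for by chi-square within genotypes, and the lowest value per degree of freedom was 3.35 over 42 pairs.

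The 10 genes and the gene lists were chosen with earlier results of these data known. Named are these genes, Lpar2, the called genes and the 2 most abundant genes of each pathway list, called markers of a list that moved with a gene, and the 2 genes nearest to each gene, of which 1 is not reported here. Apobr, Apoc2 and Apoc4 were named after their values were seen. p-values measure the spread between mice, and the floor of 3 counts covers counting error only. Alternatives were DESeq2, its size factors or the upper quartile, leaving out the filter, a minimum of 10 counts in each library, limma with a pseudocount of 1 or 0.06, the mouse number as a block, and each mouse left out.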

Additional observations from a re-analysis of the deposited data

Results flagged for a closer look

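In groups of 7 mice, 44 sets of values (the 10 genes, the marker sums and the total counts in each genotype) were examined for a single mouse whose gap to its nearest neighbour took more than 0.568 of the group's range. Chance gives about 1 in 20, and 5 were found. Abcg1 was lowest in WT mouse 1 at 87.4 CPM, a gap of 0.617 of the range. The same mouse had the highest microglia marker sum of the WT mice, 584 CPM (0.646). Knockout-labelled mouse 3 had 4084 CPM of oligodendrocyte markers (0.663), against 1015 to 2050 CPM in the other knockout-labelled mice. WT mouse 4 had 407 CPM of fibroblast markers (0.628), and it also had the highest Apod of the WT mice. Knockout-labelled mouse 2 had 296 CPM of choroid plexus markers (0.894).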

How the results depend on the processing

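Over all alternatives the 9 genes tested gave 206 further results, of which 198 kept their direction and their side of the threshold. Under the 9 alternatives that left the mice in or took out knockout-labelled mice 2 and 3 together (added after seeing the data), 0 of the 9 genes were called. With each mouse left out, 0 to 1 were called, the 1 being Apod without WT mouse 4. The direction turned without knockout-labelled mouse 4 for Apoe and Nr1h2, and for Apoc1 without knockout-labelled mouse 2, 6 or 7 or WT mouse 2 or 5, with a range of −0.13 to 0.12 over the mice left out. The ranges were −0.013 to 0.057 for Apoe, −0.0062 to 0.063 for Nr1h2, 0.026 to 0.076 for Clu and −0.20 to −0.082 for Nr1h3. With an unadjusted p under 0.05, 1 to 2 of the 9 genes were found with each mouse left out, and 2 (Apod and Abca7) with the replicate block or without knockout-labelled mice 2 and 3. Apoc1 could not be tested with at least 10 counts in every library. Apoa1, testable only without a filter, was 0.73 higher on the log2 scale (adjusted p = 0.378).

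Calls over all genes numbered 1009, 494 of them higher and 515 lower. They were 567 to 1385 with each mouse left out, with fewer than 1009 divided by 1.5 without knockout-labelled mouse 1 (611) or WT mouse 2 (567), 4 (669), 5 (596) or 6 (654), 1393 by DESeq2, and 616 higher and 377 lower with the upper quartile. Calls in the pathway lists were 3, against 5 by DESeq2 and 0 to 5 with each mouse left out. Pairs of genes past the threshold were 1 by Pearson r and 2 by Spearman rho, which added Apod and Nr1h2. Of 99 relations with marker lists, 4 passed by Pearson r and 3 by Spearman rho, 2 of them by both (Apod with endothelium, Clu with astrocytes). The Spearman test did not keep Apod with pericytes or Abcg1 with neurons, and it added Abca7 with the blood list (rho = 0.851, adjusted p = 0.00792), in which 4 of 5 markers were at 0 in all libraries. Of the genes named from the lists, Osbpl6 also lost its call with the upper quartile (adjusted p = 0.0630), with limma (0.0533 and 0.0534) and without knockout-labelled mice 2 and 3 (0.0592).

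Between mice of the same number the correlations ran from −0.33 to 0.31, with 3 of 7 above 0.1. Whether the numbers mark pairs was not tested. With the replicate block 586 genes were called, and Abca4 (adjusted p = 0.0617), Osbpl6 (0.0527) and Lum (0.0534) were not. The cause was not tested for any of these changes. Apoc1 and Apoa1 had at most 18 and 7 counts per library, and the share of counting error in their spread was not tested.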
